A study of Mus musculus with 18 samples.

Results

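The regions described here are 836 wide H3K4me3 peaks of vehicle-treated pre-osteoblasts that also lay over H3K27me3. They were chosen as the peaks of the merged DMSO H3K4me3 list that were at least 400 bp wide and shared at least 1 bp with a peak of the merged DMSO H3K27me3 list, and are called double-marked peaks. The DMSO list held 40113 H3K4me3 peaks, of which 3663 were at least 400 bp wide, and the other 2827 wide peaks, which touched no H3K27me3 peak, served for comparison. The regions were selected on peak width and on the overlap of the marks in DMSO, so these values are given only as a description.

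The cells were MC3T3-E1 subclone 4, a C57BL/6 mouse line of calvarial pre-osteoblasts at passage 9, cultured for 3 days in osteogenic medium. The vehicle arm received 0.25% DMSO and the other arm 2.5 µM EPZ6438, which inhibits EZH2, an enzyme that methylates H3K27. The labels do not say if DMSO was added to the EPZ6438 arm too, and all samples come from 1 subclone. There were 3 RNA samples in each arm and 2 ChIP samples per mark, but the ChIP samples of an arm reached this work as a single merged list of peaks, and no peak result carries a replicate error. No label says that replicates came from separate cultures, so a p-value here reflects only the spread among these samples, which may be technical.

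H3K4me3 is deposited by SET1 and MLL complexes around the starts of active or poised genes, above all at CpG islands. H3K27me3 is written by Polycomb repressive complex 2, whose catalytic subunit is EZH2 or EZH1, and marks silent genes, often developmental regulators. A promoter with both marks is called bivalent, and broad H3K27me3 domains also cover silent land far from any promoter. Peak lists of a cell population show that both marks were called at a place, and do not show that both sat on the same nucleosomes or in the same cells.

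Most promoter windows touched by a double-marked peak were rich in CpG. RefSeq promoter windows (250 bases before to 50 after a start, GRCm38.p6) shared at least 1 base with a double-marked peak in 16 cases, for 14 genes. The observed over expected CpG ratio, which is near 1 in CpG islands and far lower in bulk mammalian DNA, had a median of 0.915 in these 16 windows and exceeded 0.6 in 14 of them. It exceeded 0.6 in all 13 windows at peaks that were found again in EPZ6438. These 13 windows belong to 11 genes and some share bases, such as those of Gm40371 and those of Lhx2 and Gm46736. The ratio exceeded 0.6 in 1 of the 3 windows at peaks that were not found again, whose median was 0.438. The median was 0.879 over the 1246 windows at wide peaks without H3K27me3 and 0.384 over all 32841 windows. The hexamer GGGCGG, searched on both strands as a GC box, was found in 93.8% of the 16 windows, in 83.5% of those at peaks without H3K27me3 and in 35.7% of all windows. The promoter table is not complete and was matched by gene symbol: 24 of the 66 genes near a double-marked peak matched a window, and in 6 of them the window touched the peak. March9 was not matched, since its window carries the symbol Marchf9, and that window also touched its peak. The 250 bases before the RefSeq start are shown for 4 of the 6 genes because they range from a high to a low CpG ratio. Every CG is in capitals (build GRCm38.p6). The ratio ran from 1.06 at Zfp618 to 0.438 at Slc17a7, which is below 0.6. Gm41644, the lowest of the 16 windows at 0.0536, is not shown. The Zfp618 sequence lies at chr4:62965317-62965566 (+ strand), that of Lhx2 at chr2:38339031-38339280 (+ strand), that of Cacng7 at chr7:3332575-3332824 (+ strand) and that of Slc17a7 at chr7:45163671-45163920 (+ strand).
Zfp618: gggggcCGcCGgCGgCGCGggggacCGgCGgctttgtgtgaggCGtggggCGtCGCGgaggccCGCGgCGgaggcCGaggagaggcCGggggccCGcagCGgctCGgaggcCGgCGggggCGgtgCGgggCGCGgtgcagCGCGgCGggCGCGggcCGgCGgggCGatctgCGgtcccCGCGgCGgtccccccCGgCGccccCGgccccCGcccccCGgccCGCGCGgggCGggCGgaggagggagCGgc
Lhx2: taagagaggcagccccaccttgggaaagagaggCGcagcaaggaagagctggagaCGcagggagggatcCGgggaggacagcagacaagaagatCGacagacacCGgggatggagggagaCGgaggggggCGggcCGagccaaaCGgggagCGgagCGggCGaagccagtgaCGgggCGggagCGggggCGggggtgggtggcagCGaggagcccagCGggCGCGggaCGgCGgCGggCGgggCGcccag
Cacng7: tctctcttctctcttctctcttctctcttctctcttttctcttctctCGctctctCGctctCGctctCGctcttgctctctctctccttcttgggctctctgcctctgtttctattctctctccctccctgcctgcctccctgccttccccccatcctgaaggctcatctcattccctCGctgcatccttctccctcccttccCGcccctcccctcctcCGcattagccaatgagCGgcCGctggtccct
Slc17a7: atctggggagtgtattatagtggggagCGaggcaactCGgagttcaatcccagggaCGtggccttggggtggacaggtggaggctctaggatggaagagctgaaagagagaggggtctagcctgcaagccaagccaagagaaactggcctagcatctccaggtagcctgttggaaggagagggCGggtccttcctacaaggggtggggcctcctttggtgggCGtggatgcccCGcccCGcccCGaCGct
Zfp618 has 48 CG in these 250 bases, Lhx2 25, Cacng7 9 and Slc17a7 9. The H3K4me3 peak at Zfp618, Lhx2 and Cacng7 overlapped an EPZ6438 H3K4me3 peak, and the peak at Slc17a7 did not.

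Most double-marked peaks were narrow for their class and lay inside large H3K27me3 peaks. Their width had a median of 462 bp (range 400 to 3911), against 543 bp (400 to 2268) for the wide peaks without H3K27me3. In 522 (62.4%) the whole peak lay within H3K27me3, in 230 more than 50% but not all of it, and in 84 at most 50%. The smallest overlap was 7 bases, in the peak at the start of Tbkbp1, an adaptor of the kinase TBK1, and the largest 3807 bases. The 792 H3K27me3 peaks matched to them had a median width of 1400 bp and 62.1% were at least 1000 bp wide, whereas all 143399 DMSO H3K27me3 peaks had a median of 399 bp and 16.8% were that wide. A wide peak has more room to be touched by a wide peak, so the widths of both marks are linked by the choice of regions. The comparison peaks lay a median of 12606 bp from the nearest H3K27me3 peak, and the closest was 5 bp away. Just inside the width limit, 108 peaks with H3K27me3 were 400 to 409 bp wide, of which 3 had a gene end within 1 kb and 1 overlapped an EPZ6438 H3K4me3 peak. Just outside, the 110 such peaks of 390 to 399 bp gave 9 and 3. Overlap with H3K27me3 was not particular to wide peaks. At 300 to 399 bp 1950 H3K4me3 peaks had it and 2779 did not, at 200 to 299 bp 7729 and 7055, and at 177 to 199 bp 8732 and 8205. Of those with H3K27me3, 6.05%, 4.70% and 4.08% in these 3 classes had a gene end within 1 kb.

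Double-marked peaks were mostly not at promoters. An end of a gene of the expression table, on either side and without strand, lay within 1 kb of 64 of them (7.66%, exact 95% binomial interval 5.95 to 9.67%), against 2254 of the 2827 wide peaks without H3K27me3 (79.7%, 78.2 to 81.2%). These intervals cover counting error only. A further 198 (23.7%) lay inside a gene more than 1 kb from its ends, 175 (20.9%) outside genes within 10 kb, 281 (33.6%) at 10 to 50 kb and 118 (14.1%) farther than 50 kb. Of the wide peaks without H3K27me3, 6.26% lay in these 3 classes outside genes. The median distance to a RefSeq start was 26630 bp for double-marked peaks and 187 bp for the others, and 10 double-marked peaks (1.20%) covered such a start against 582 (20.6%) of the others. For H3K27me3 itself, of all DMSO H3K27me3 peaks 5.72% had a gene end within 1 kb and 32.9% lay inside a gene, and of those at least 400 bp wide 6.49% and 31.3%. Placement varied with width and coverage among the double-marked peaks. A gene end lay within 1 kb of 6.15% of those 400 to 499 bp wide and of 8 of the 16 (50%) that were 1000 bp or wider. It lay that near to 3.64% of those wholly inside H3K27me3 and to 15.5% of those covered by at most 50%. Among the 8 peaks of 1000 bp or wider were those at the predicted genes Gm21738, Gm10800, Gm10717 and Gm17535. These genes had at most 2 reads in any library.

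**Figure D1:**
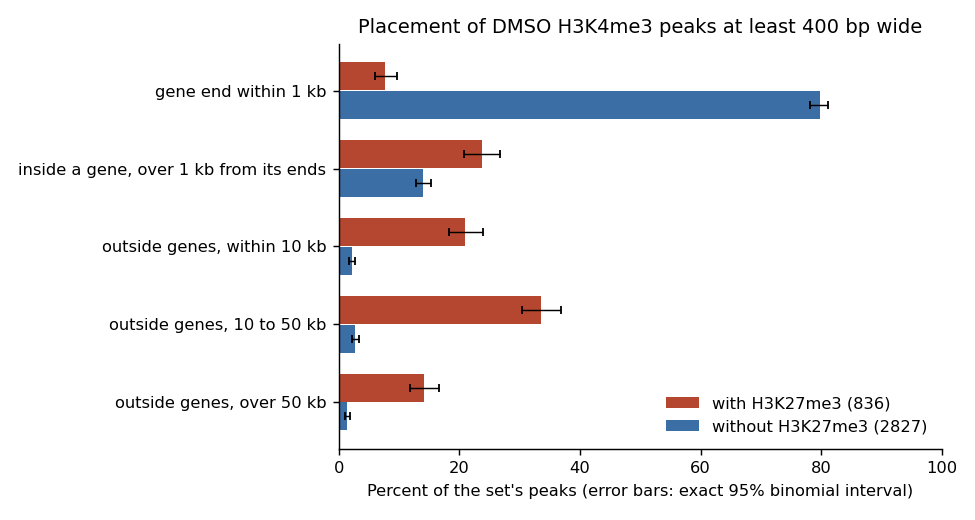
Percent of DMSO H3K4me3 peaks at least 400 bp wide in each of 5 classes of place, for the 836 with and the 2827 without H3K27me3, with exact 95% binomial intervals as error bars. The bars differ most for peaks with a gene end within 1 kb, 7.66% against 79.7%.

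The double-marked peaks were unevenly spread over chromosomes. Chromosome 6 held 147 of them (17.6%), against 6.72% of the wide peaks without H3K27me3. The same chromosome held 9.87% of all DMSO H3K4me3 peaks, 8.71% of all DMSO H3K27me3 peaks and 4.92% of the genes of the table. On chromosome 6, 43.6% of wide H3K4me3 peaks carried H3K27me3, on chromosome 4 31.7%, on chromosome 2 23.3% and on chromosome 7 7.74%. Chromosomes 2, 4 and 10 held 86, 85 and 75 double-marked peaks, and chromosome X 1. Copy number of the line was not tested and no signal height was analysed here. Without chromosome 6, 8.42% of the remaining 689 had a gene end within 1 kb and 10.6% overlapped an EPZ6438 H3K4me3 peak. Most stood alone: 127 (15.2%) lay within 10 kb of another, in 53 runs. The longest run, 16 peaks at chr9:3000014-3036730, holds predicted genes such as Gm10720 and Gm17535, which were at 0 in every RNA library. Whether reads can be placed uniquely in this run was not tested. It supplied 12 of the 64 peaks with a gene end within 1 kb, and 9 of its 16 peaks overlapped an EPZ6438 H3K4me3 peak. A run of 4 at chr11:3101330-3104201 had no gene end within 1 kb, and all 4 overlapped an EPZ6438 H3K4me3 peak.

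**Figure D2:**
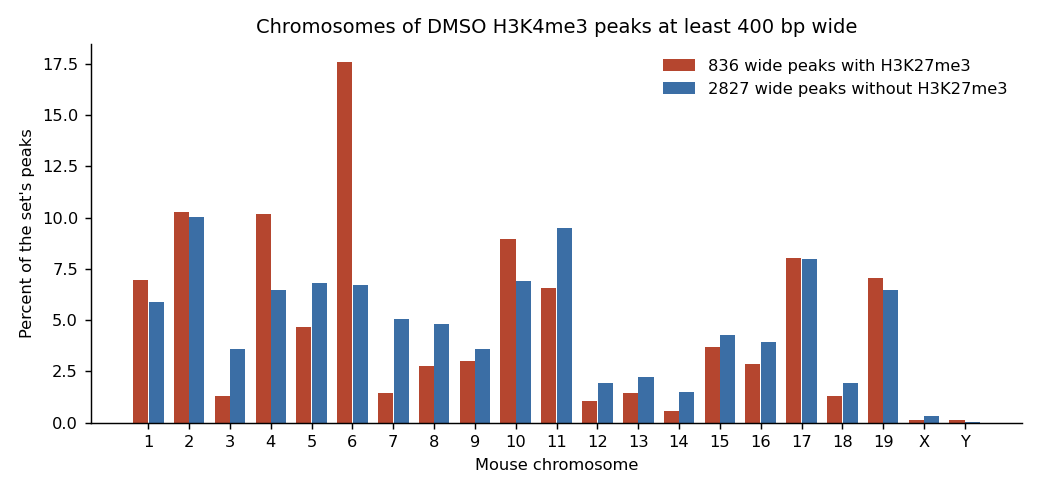
Percent of the 836 double-marked peaks and of the 2827 wide H3K4me3 peaks without H3K27me3 on each mouse chromosome. Chromosome 6 holds 17.6% of the double-marked peaks and 6.72% of the others.

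In the EPZ6438 arm few of the double-marked peaks were found again. An EPZ6438 H3K4me3 peak overlapped 80 of the 836 by at least 1 bp (9.57%, 7.66 to 11.8%), against 2607 of the 2827 wide peaks without H3K27me3 (92.2%, 91.2 to 93.2%) and 9507 of all 40113 DMSO peaks (23.7%). Peaks found again are called kept and the others lost, with no statement on signal, which the lists do not hold. The EPZ6438 H3K4me3 list was shorter and its peaks wider, with 16216 peaks of median width 401 bp against 40113 of 212 bp, and the part of this difference in the losses was not tested. Kept double-marked peaks had a median width of 554 bp, lay in H3K27me3 peaks of median width 875 bp and were covered to a median of 84.7%. Lost ones had a median width of 458 bp, lay in H3K27me3 peaks of median width 1496 bp and were covered wholly at the median. At least 50% of the DMSO peak was covered by EPZ6438 peaks in 56 of the 80.

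The share kept was higher at larger width in both sets and was lower in the double-marked set at every width class. For double-marked peaks it was 5.03% at 400 to 499 bp, 11.9% at 500 to 599 bp, 16.0% at 600 to 799 bp, 32% at 800 to 999 bp (8 of 25) and 68.8% at 1000 bp or more (11 of 16). For wide peaks without H3K27me3 it was 85.3%, 93.8%, 97.4%, 99.2% and 100% in the same classes. Below the width limit the same order held, with 2.67% against 71.0% at 300 to 399 bp. The 11 kept double-marked peaks of 1000 bp or more include those at the predicted genes Gm21738, Gm10800, Gm10717 and Gm17535. They also include the peak nearest to the pseudogene Vmn1r-ps2. None of these genes had more than 2 reads in any library, and whether reads can be placed uniquely at these peaks was not tested. The share kept also differed by place. It was 32 of 64 (50%) with a gene end within 1 kb, 9.60% inside genes, 2.86% outside genes within 10 kb, 5.69% at 10 to 50 kb and 6.78% beyond 50 kb, and 8 of the 10 peaks over a RefSeq start were kept. Outside the run on chromosome 9, 25 of 52 peaks with a gene end within 1 kb (48.1%) were kept. By coverage it was 23 of 84 (27.4%) where at most 50% of the peak lay in H3K27me3, 14.3% for partial coverage above that and 4.60% for whole coverage. Width, place and coverage move together, and their parts were not separated.

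**Figure D3:**
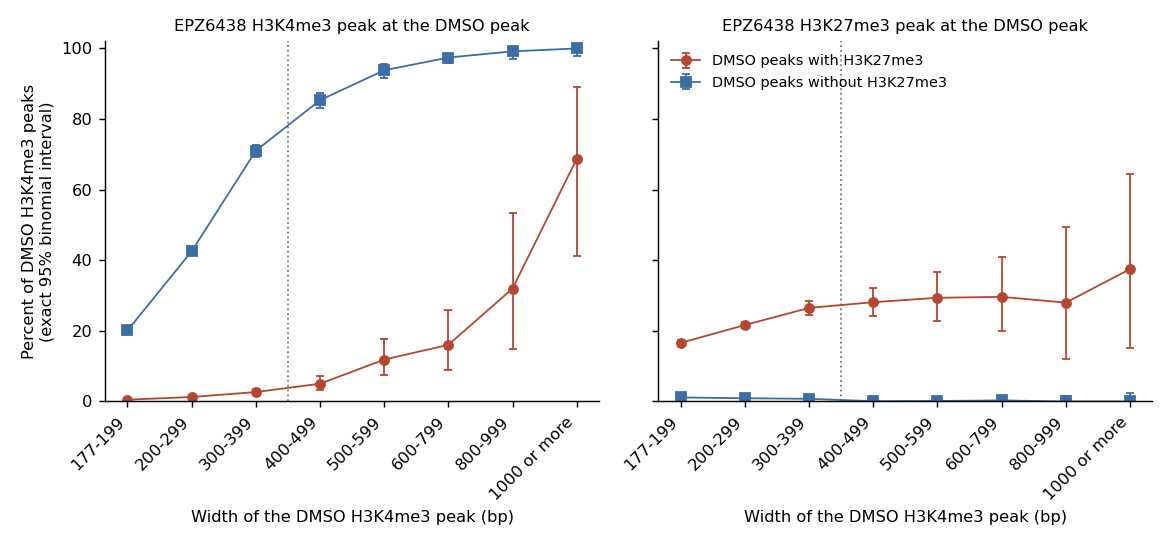
Percent of DMSO H3K4me3 peaks that overlap an EPZ6438 H3K4me3 peak (left) or an EPZ6438 H3K27me3 peak (right), by width class in bp, with and without DMSO H3K27me3. Error bars are exact 95% binomial intervals, the dotted line is the 400 bp limit, and at 400 to 499 bp 5.03% of double-marked peaks and 85.3% of the others were kept.

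H3K27me3 was called again in EPZ6438 more often than H3K4me3 at these regions. An EPZ6438 H3K27me3 peak overlapped 240 double-marked peaks (28.7%, 25.7 to 31.9%) and 4 of the wide peaks without H3K27me3. In EPZ6438, 221 double-marked peaks (26.4%) had H3K27me3 only, 61 (7.30%) H3K4me3 only, 19 (2.27%) both marks and 535 (64.0%) neither. The EPZ6438 H3K27me3 list held 20764 peaks against 143399 in DMSO. Of the 792 DMSO H3K27me3 peaks matched to a double-marked peak, 290 (36.6%) overlapped an EPZ6438 H3K27me3 peak, against 10.7% of the other H3K27me3 peaks. By width the shares were 14.5% against 6.25% under 500 bp, 20.7% against 10.9% at 500 to 999 bp, 27% against 21.1% at 1000 to 1999 bp, 53.0% against 39.9% at 2000 to 3999 bp, and 78.0% against 66.6% at 4000 bp or more. Peaks wholly inside H3K27me3 had an EPZ6438 H3K27me3 peak in 37.0% of cases, and those covered by at most 50% in 13.1%. The same rule applied within EPZ6438 gave 22 of 8161 wide H3K4me3 peaks over EPZ6438 H3K27me3, of which 6 lay on a double-marked DMSO peak and 8 had a gene end within 1 kb.

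The 10 double-marked peaks with the most H3K27me3 bases lay at predicted genes (3), at Srcin1 (1) or outside genes more than 1 kb from any gene end (6). The widest of all, 3911 bp at chr14:19415726-19419636 with 3807 bases in H3K27me3, lay at the predicted gene Gm21738 and was overlapped over 1611 bases by EPZ6438 H3K4me3. Gm21738 had 2 reads in 1 DMSO library and none in the other 5. A kept peak of 1598 bp at chr4:3089544-3091141 lay 12617 bp from the pseudogene Vmn1r-ps2, which had no reads. Further kept peaks in this group lay at Gm10800, at Gm17535 and Gm10715 in the chromosome 9 run, and at Srcin1 with its antisense gene Gm11612. The Srcin1 peak, 1001 bp at chr11:97574518-97575518, was covered entirely by H3K27me3 in both arms, and Srcin1, an inhibitor of the kinase SRC, had 4 to 18 reads per library. A peak of 1020 bp at chr6:42652107-42653126, 6852 bp from Fam115c, kept 229 bases of H3K4me3 and all 1020 of H3K27me3. The 4 lost ones lay 8946 bp from Tmem128, 16151 bp from Gm11814, 4389 bp from Txndc8 and 29540 bp from Rbm34. None of the tested nearest genes passed the RNA threshold (adjusted p by limma 0.773 for Tmem128, 0.675 for Gm11814, 0.545 for Rbm34, 0.264 for Fam115c, 0.682 for Srcin1).

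Genes near double-marked peaks had lower RNA levels than genes near wide peaks without H3K27me3, and ranged from no reads to 26.8 RPKM in DMSO (Stambp). The table gave 66 genes with an end within 1 kb of a double-marked peak, 52 of them protein-coding, and 23 (34.8%) were at 0 in every library, against 46.6% of all genes and 2.93% of genes near only wide peaks without H3K27me3. RPKM, reads scaled to gene length and to the reads in genes, had a median over the 66 genes of 0.0202 in DMSO and 0.0419 in EPZ6438 (means of 3 libraries), and 0 in both arms over all genes. By library the median was 0, 0.00512 and 0.0169 in DMSO and 0.0462, 0.00143 and 0.0291 in EPZ6438, so the arms overlapped. The 2797 genes near only wide peaks without H3K27me3 had medians of 9.58 and 9.40 RPKM, between 9.26 and 9.67 in every library. At least 1 RPKM was reached by 17 of the 66 genes in DMSO (25.8%) and 18 in EPZ6438, against 83.6% of the comparison genes in DMSO and 28.7% of all genes. Without the genes of the chromosome 9 run the medians were 0.0966 and 0.0912 RPKM over 56 genes, so the higher EPZ6438 median did not hold. In bulk samples fewer cells that express a gene and less RNA per cell cannot be told apart.

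Of the 66 genes, 29 passed the filter of at least 10 reads in at least 3 libraries, 14 had reads below it and 23 had none. Among the 29 tested, 4 rose at an adjusted p under 0.05 by limma (13.8%) and none fell, where 3.8% of all 14213 tested genes rose, 3.24% fell and 7.04% did either. At an unadjusted p under 0.05 by limma the 29 gave 10 genes, and all 14213 tested genes gave 2927. The median log2 change was 0.15 over the 29 and -0.03 over all tested genes. The arms did not overlap in 11 of the 29 with EPZ6438 higher (37.9%, 12% over all tested genes) and in 5 with EPZ6438 lower (17.2%, 14.7% over all). Genes near only wide peaks without H3K27me3 gave 61 rises and 61 falls among 2469 tested (2.47% each), with a median log2 change of -0.02. No test of the difference between the sets was run, and 1 of the 4 risers, Lhx2, passed the filter only through its EPZ6438 reads. The 4 risers were among the 18 tested genes whose peak was kept, and of the 11 tested genes with lost peaks none rose or fell and 1 had an unadjusted p under 0.05. With limma voom 5 of the 29 rose and none fell, against 638 rises and 530 falls over all tested genes. Strand was known by symbol match for 24 genes. The peak lay at the gene's start in 20, of which 18 were tested and 4 rose, and at its end in 4.

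Zfp618, a zinc finger protein, had 0.694, 0.727 and 0.738 RPKM in DMSO and 1.84, 1.93 and 1.91 in EPZ6438. All 3 EPZ6438 libraries lay above all 3 DMSO libraries, and replicates were close in both arms. The log2 change of RPKM + 0.1 was 1.28 (SE 0.13, adjusted p by limma 0.00227). Its peak at chr4:62965153-62966131, 979 bp with 750 bases in H3K27me3, was overlapped over 761 bases by H3K4me3 and by no H3K27me3 peak in EPZ6438.

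Coro2b, an actin-binding coronin, had 0.269, 0.357 and 0.286 RPKM in DMSO and 0.891, 0.798 and 0.903 in EPZ6438, with no overlap between arms. The log2 change was 1.26 (SE 0.17, adjusted p by limma 0.0064, and 0.0528 with no read filter). Its peak at chr9:62536387-62536873 had 404 of 487 bases in H3K27me3, and in EPZ6438 both marks were still called there, over 370 bases for H3K4me3 and 228 for H3K27me3.

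Ppm1e, a protein phosphatase, had 0.706, 0.631 and 0.412 RPKM in DMSO and 1.33, 1.27 and 1.28 in EPZ6438. The lowest EPZ6438 library lay above the highest DMSO library, and the DMSO libraries varied more. The log2 change was 1.05 (SE 0.20, adjusted p by limma 0.0258), and the adjusted p ran from 0.0818 to 0.111 without DMSO replicate 2 or without any one of the EPZ6438 libraries, and was 0.103 with no read filter. Its peak at chr11:87358137-87358763 also carried both marks in EPZ6438.

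Lhx2, a LIM homeodomain transcription factor, had 3, 1 and 1 reads in DMSO and 11, 22 and 13 in EPZ6438, or 0.0363, 0.0102 and 0.00897 against 0.119, 0.207 and 0.148 RPKM. It was near silent in DMSO and higher in all 3 EPZ6438 libraries. The log2 change was 1.12 (SE 0.23, adjusted p by limma 0.0313). It fell under the read filter when any EPZ6438 library was left out, and its adjusted p was 0.117 without DMSO replicate 2 and 0.0697 without DMSO replicate 3. With pseudocounts of 0.5 and 1 RPKM the adjusted p was 0.0659 and 0.0899, and with no read filter 0.0569. Its peak at chr2:38339130-38339949 had 607 of 820 bases in H3K27me3 and was overlapped over 747 bases by H3K4me3 and by no H3K27me3 peak in EPZ6438.

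The next genes by adjusted p did not pass the threshold in the reported fit. Inhbb, the beta B subunit of activins and inhibins, had 0.475, 0.381 and 0.547 RPKM in DMSO and 0.726, 1.03 and 0.915 in EPZ6438 (log2 change 0.80, adjusted p by limma 0.0583). Its peak was kept, and the arms did not overlap. Inhbb passed the threshold under 3 alternatives, with an adjusted p by limma of 0.0494 at a pseudocount of 1 RPKM, 0.0445 with a filter of 1 CPM in 3 libraries and 0.0498 with voom. Slc17a7, a vesicular glutamate transporter, had 0.235, 0.276 and 0.147 RPKM against 0.485, 0.380 and 0.629 (log2 change 0.91, adjusted p by limma 0.0766). Its peak, wholly inside H3K27me3, lost H3K4me3 and kept H3K27me3 over 472 of 500 bases. Slc17a7 and Inhbb were named for their rank after their values were seen, and Inhbb also by the list rule. Cdkn1c, the CDK inhibitor p57, had no read in DMSO and 4, 0 and 7 reads in EPZ6438, too few for a test, and its peak was lost.

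**Figure D4:**
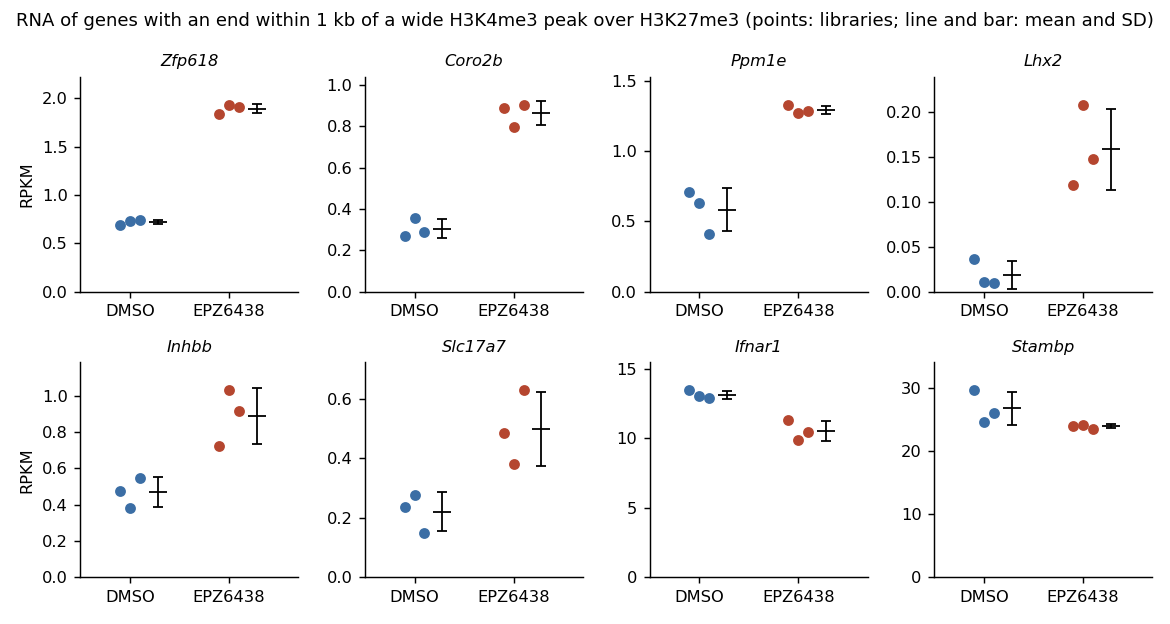
RPKM in each of the 3 DMSO and 3 EPZ6438 libraries (points) with mean and SD for 8 genes with an end within 1 kb of a double-marked peak. Zfp618, Coro2b, Ppm1e and Lhx2 passed the threshold with EPZ6438 above DMSO, and Inhbb, Slc17a7, Ifnar1 and Stambp did not pass it.

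The most abundant genes near double-marked peaks did not pass the threshold. Stambp, a deubiquitinase, had 24.7 to 29.6 RPKM in DMSO and 23.6 to 24.1 in EPZ6438 (log2 change -0.16, adjusted p by limma 0.375). Cpne3, a copine that binds phospholipids, had 12.5 to 17.9 and 11.8 to 13.2 RPKM, with overlapping arms. Ifnar1, a subunit of the type I interferon receptor, had 12.9 to 13.5 and 9.86 to 11.3 RPKM (log2 change -0.32, adjusted p by limma 0.0823). Ppil2, of the cyclophilin family, had 12.1 to 12.7 and 10.9 to 11.8 RPKM, and Timm17a, a subunit of the mitochondrial inner membrane translocase, 9.46 to 10.5 and 10.7 to 11.4. The peaks at Stambp, Ppil2 and Timm17a were lost and those at Cpne3 and Ifnar1 kept. Each of these peaks lay outside its gene, within 1 kb of an end, so a loss says nothing on H3K4me3 elsewhere at the gene. Ppil2 also had an end within 1 kb of a wide peak without H3K27me3. Tet1, a dioxygenase of 5-methylcytosine, had a mean of 1.24 RPKM in DMSO and 1.6 in EPZ6438 (adjusted p by limma 0.269) and its peak was lost; it was named after its values were seen.

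Genes that held a double-marked peak more than 1 kb from their ends numbered 177, and 16 of the 64 tested passed the RNA threshold. Of the 177, 55 (31.1%, against 46.6% of all genes) were at 0 in every library and 40 reached 1 RPKM in DMSO, with medians of 0.00562 RPKM in DMSO and 0.0191 in EPZ6438. Of the 64 tested, 15 rose (23.4%, against 3.8% of all tested genes) and 1 fell (1.56%, against 3.24%). An unadjusted p under 0.05 by limma was found for 27 of the 64 and for 2927 of all 14213 tested genes. The median log2 change of the 64 was 0.03. Genes that held a wide peak without H3K27me3 in the same way gave 12 rises and 11 falls among 352 tested (3.41% and 3.12%). Among the 64 genes with a double-marked peak inside, 5 of 21 with a kept peak rose and 10 of 43 with a lost one, a difference that was not tested. The 5 include Phospho1 and Zfp652, which hold the same peak. That peak starts at 95825513 and Phospho1 at 95824499, just past the 1 kb limit. The peaks held by Phospho1, Wnt10a, Pdlim1, Slc25a23 and Cys1 lay within 5 kb of an end of the gene. Acoxl and Colgalt2 passed the filter only through their EPZ6438 reads. These genes were chosen for naming after their values were seen.

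Hpse, the heparan sulphate cleaving enzyme heparanase, had 0.514, 0.486 and 0.549 RPKM in DMSO and 6.66, 5.28 and 5.45 in EPZ6438 (log2 change 3.25, SE 0.14, adjusted p by limma 0.00013). Its peak of 418 bp kept H3K27me3 but not H3K4me3. Steap3, a metalloreductase of iron uptake, had 0.0837, 0.142 and 0.200 RPKM against 1.48, 1.5 and 1.28 (log2 change 2.68, SE 0.22). Phospho1, a phosphatase of matrix mineralisation, had 24.5, 28.4 and 31.1 RPKM against 153, 165 and 174 (log2 change 2.55, SE 0.10). In each of these 3 genes all EPZ6438 libraries lay far above all DMSO libraries. Zfp652 overlaps Phospho1 and holds the same kept peak at chr11:95825513-95826135, so their reads may be shared, and it had 8.33 RPKM in DMSO and 23.6 in EPZ6438. Colgalt2, a collagen galactosyltransferase, had no read in DMSO and 0.827 CPM (reads scaled to library size) in EPZ6438, at least 6.01-fold above the level of 3 reads per DMSO library. Pdzd2, a protein with PDZ domains, held 2 lost peaks and had 0.157 and 1.22 RPKM. Wnt10a, a Wnt ligand, had 4.95, 5.87 and 7.03 RPKM in DMSO and 10.8, 10.5 and 10.8 in EPZ6438 (log2 change 0.85, SE 0.14, adjusted p by limma 0.0128), with a kept peak 2064 bp from a RefSeq start. Pdlim1, a PDZ and LIM domain protein, and Cacna1c, the pore subunit of an L-type calcium channel, had kept peaks within 1 kb of a RefSeq start and log2 changes of 0.88 and 0.62. The remaining risers were Ccdc88c, Cys1, Acoxl, Chn1, Slc25a23 and Mdga1, with log2 changes between 0.98 and 1.41 and lost peaks. Cdh17, a cadherin, was the gene that fell, with 3.43, 3.33 and 2.72 RPKM in DMSO and 1.69, 1.42 and 1.67 in EPZ6438 (adjusted p by limma 0.0121), and its peak was lost.

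**Figure D5:**
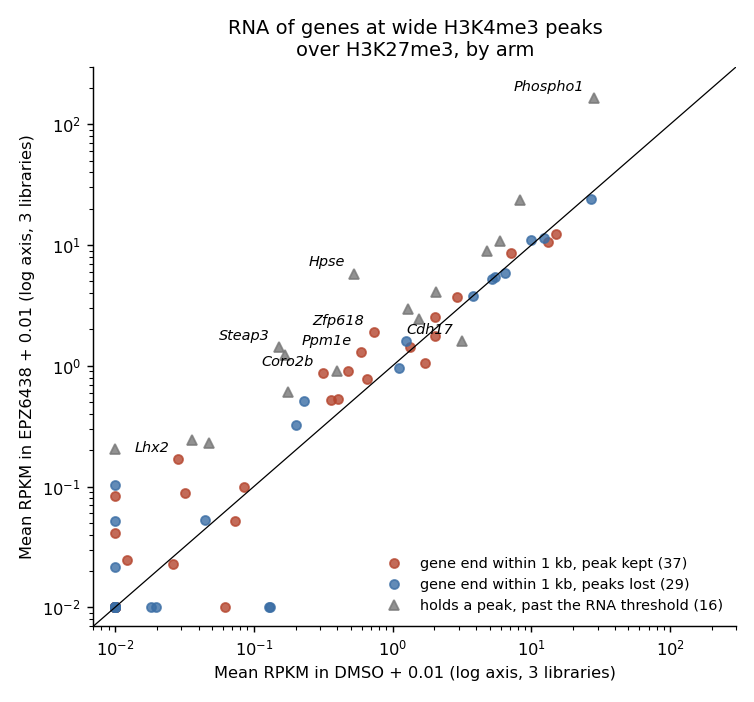
Mean RPKM + 0.01 over 3 libraries in DMSO (x) and EPZ6438 (y), log axes, for the 66 genes with an end within 1 kb of a double-marked peak (circles, coloured by whether the peak was kept) and the 16 genes past the RNA threshold that hold one inside (triangles). The line marks equal levels, and points above it, such as Phospho1 and Hpse, were higher in EPZ6438.

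Of the gene lists examined, 3 had 1 gene each near a double-marked peak (Lhx2, Inhbb and Cdkn1c), where 66 of all 43309 genes of the table (0.152%) were near one, and counts of 0 or 1 in a list are too small to set against that share. Of 39 Hox genes in the table none had an end within 1 kb of a double-marked peak, and of 93 other homeobox genes 1 did, Lhx2. The same held for 44 forkhead, 17 T-box, 19 Sox and 57 basic helix-loop-helix genes, of which none did. Over the whole lists, to be read against 3.8% of all tested genes that rose and 3.24% that fell, 1 of 16 tested Hox genes rose, 4 of 41 other homeobox genes rose and 3 fell, and 0 of 17 forkhead genes rose and 2 fell. Among 19 Wnt ligands none was near a double-marked peak by its ends and 1, Wnt10a, held a peak, and 6 of the 9 tested rose and none fell. Of 8 tested Wnt antagonists 5 rose and 3 fell, and of 17 tested Wnt receptors and co-receptors 1 rose and 2 fell. Of 37 BMP and TGF-beta ligands and antagonists Inhbb was near 1 and Nodal held 1, and 4 of 24 tested rose and 1 fell. Of the Hedgehog pathway Smo, the signal transducer, held a lost peak of 862 bp, and of the Wnt receptors Lgr6 held a lost peak of 620 bp that kept H3K27me3. Of 11 osteoblast markers Phospho1 held a peak, and 7 of the 11 tested rose and 1 fell. Median log2 changes over the tested genes were 0.06 for Hox, 0.85 for Wnt ligands and 0.91 for osteoblast markers, against -0.03 over all tested genes.

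The RNA libraries held 18807156 to 25365513 reads in genes. The gene of the drug target, Ezh2, had 12.6 to 16.2 RPKM in DMSO and 14.1 to 15.4 in EPZ6438, which is no check of the drug since EPZ6438 blocks the enzyme and not its RNA. The 11 osteoblast markers summed to 3444 to 6022 RPKM in DMSO and 5588 to 7423 in EPZ6438. The 6 chondrocyte markers summed to 19.1 to 28.8 and 92.5 to 122 with Acan at 0, the 4 neuronal markers to 6.80 to 9.03 and 30.1 to 38.3 with Rbfox3 at 0, the 4 skeletal muscle markers to 0.637 to 1.05 and 1.43 to 1.79 with Myod1 and Myog at 0, and the 4 smooth muscle markers to 2156 to 2295 and 1623 to 1647. Adipocyte and endothelial markers stayed under 1 RPKM in every library, and blood markers reached at most 1.47. The part of these marker shifts in the changes of genes at double-marked peaks was not tested.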

How the data were processed

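RNA and the 2 marks were analysed as the authors deposited them. Expression was deposited as RPKM, reads scaled to gene length and library size, per the file headers; genes have positions but no strand. The authors deposited other values for the marks: 1 merged list of peak intervals for each antibody in each arm, without scores. The submitters' processing notes name STAR 2.6.1c, Subread, MACS2, HOMER, Picard, DiffBind and mm10, without roles, and caller thresholds are not given in any source used. All RPKM values gave whole reads (100%, tolerance 0.001).

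A gene entered the test when 3 or more libraries held 10 or more recovered reads. The test was limma 3.58.1 (trend, two-sided) in R 4.3.3 on log2(RPKM + 0.1), 3 samples against 3, without a block, with Benjamini-Hochberg adjustment over all tested genes. Fold changes on this scale understate low genes. The test was tried on simulated data. Python 3.11.15 (pandas 2.3.3, numpy 2.4.6) computed overlaps. Intervals are exact (Clopper-Pearson, scipy 1.17.1), are on numbers of peaks and cover counting error only. Figures were drawn with matplotlib 3.10.9. Promoter sequences are RefSeq's.

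The regions and gene lists were chosen with earlier results of these data known. Genes were named by rule: those at the 10 regions with the most H3K27me3 bases, the 10 largest linked rises and falls past the threshold at 1 CPM or more, the leading linked gene of each list, the 5 most abundant linked genes, and Ezh2. Other names were chosen after their values were seen. Alternatives were other widths, overlaps, windows, pseudocounts, filters, scaling, voom, a replicate block and leaving out each library.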

Additional observations from a re-analysis of the deposited data

How the results depend on the processing

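The direction of the main contrasts, fewer double-marked than H3K27me3-free wide peaks near gene ends and kept in EPZ6438, was the same under every definition run, with these values where they moved.

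With at least 50% of the peak in H3K27me3, 7.58% were kept and the linked genes' median was 0 RPKM in both arms. At a width of 300 bp there were 2786 double-marked peaks, 4.74% kept, and of 62 tested linked genes 6 rose and 1 fell. Of the peaks without H3K27me3 69.9% had a gene end within 1 kb and 81.7% were kept. At 600 bp there were 122, 17.2% near a gene end and 26.2% kept (83.3% and 98.2% without H3K27me3), with medians of 0 RPKM in DMSO and 0.0129 in EPZ6438. At 1000 bp there were 16, 50% near and 68.8% kept (81.2% and 100%). Of 4 tested linked genes 0 rose, and the medians were 0.00819 and 0.00645 RPKM, EPZ6438 now lower. With H3K27me3 peaks of at least 400 bp, 77.8% and 90.1% of the others were near and kept, and the medians were 0.00827 and 0.0117. Merging H3K4me3 peaks across gaps up to 500 bp, chosen after seeing the data like the next 3, gave 1704 double-marked peaks. Of the others 78.1% and 88.8% were near and kept, and the medians were 0.122 and 0.158. Of 59 tested linked genes 9 rose (Efna3, Zfp618, Coro2b, Lhx2, Plag1, Ppm1e, Ak4, Adam19 and Chchd7) and 2 fell (Igtp and Irgm2). Without chromosome 6 the DMSO median was 0.00905, without the chromosome 9 run the medians were 0.0966 and 0.0912, and with 1 kb around RefSeq starts 3.71% and 70.9% were near, with medians of 0.719 and 1.43.

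With a 0 bp window 2.63% and 20.2% touched a gene end and 2 of 10 tested linked genes rose. Over all tested genes 3.8% rose and 3.24% fell in the reported fit. With 5 kb it was 23.8% and 89.4%, 11 of 76 tested linked genes rose and 1 fell, and the medians were 0.00827 and 0.0191. With whole genes plus 1 kb it was 31.3% and 93.7%, 19 of 93 tested linked genes rose and 1 fell, and the DMSO median was 0.00673. With protein-coding genes 76.1% of the others were near and the medians were 0.0573 and 0.0912, and over tested linked genes 1.33 and 1.6. When EPZ6438 peaks had to cover 50% of the DMSO peak, 6.70% and 89.5% were kept, and with EPZ6438 peaks of at least 400 bp 4.19% and 85.4%.

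Without the read filter 1 linked gene rose (Zfp618), 40 rose and 38 fell near peaks without H3K27me3, and 355 rose and 273 fell in all. Leaving out each library gave 2 to 4 linked risers, 16 to 69 rises and 11 to 75 falls near peaks without H3K27me3, and 190 to 539 rises and 93 to 464 falls in all, with the low counts without DMSO replicate 2 or any EPZ6438 library. Zfp618 was called in every setting run and Lhx2 was lost in 10 of 14. Inhbb was gained in 3. Leaving out 1 library turned the sign of 3 genes that were never called, with log2 changes from -0.19 (without DMSO replicate 3) to 0.0197 (without DMSO replicate 1) for Tmem128, from -0.64 (without EPZ6438 replicate 1) to 0.10 (without EPZ6438 replicate 2) for Gm11814, and from -0.0379 (without DMSO replicate 3) to 0.14 (without DMSO replicate 1) for Ezh2.
The cause of these moves was not tested. To look for pairing, each library's deviations from its arm mean of log2(RPKM + 0.1) were correlated across arms. These are not correlations of the libraries themselves. Same-numbered libraries gave 0.410, 0.0781 and 0.0561. Differently numbered ones ran from -0.405 (DMSO 3 with EPZ6438 1) to 0.331 (DMSO 3 with EPZ6438 2). The numbers were therefore not taken to pair samples. With the replicate block 3 linked genes rose, Lhx2 being lost at an adjusted p by limma of 0.0592. EdgeR and DESeq2 were planned and not run, since the deposited values are RPKM. The peak lists hold no height, so peak results have no depth or replicate limit that could be stated, and a floor of 3 reads is 0.118 to 0.160 CPM.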
